A study of Homo sapiens with 4 samples.

Results

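MECOM and 7 further PRDM genes were followed in RNA sequencing of hTERT-RPE1 cells, a telomerase-immortalised human line from retinal pigment epithelium. The genes were taken by symbol from the count table, which holds 19653 genes. MECOM had been picked because its counts were near 6-fold higher in the libraries labelled sg53BP1. PRDM16, PRDM1, PRDM2, PRDM4, PRDM8, PRDM10 and PRDM15 were added as relatives, and all 8 had a row in the table. Cells labelled sg53BP1, genotype 53BP1 knockout, had been given a guide RNA to 53BP1 by lentivirus for editing with Cas9. Cells labelled sgControl, genotype WT, had Cas9 alone. Both groups were otherwise untreated, with 2 libraries each and totals of 16654411 to 18164086 counts. The labels name neither separate cultures nor clones, so p-values measure the spread between these libraries, which may be technical. TP53BP1, the targeted gene, had the higher counts under the knockout label. Its counts were 431 and 594 where sgControl is the label, and 1743 and 1516 where sg53BP1 is. RNA counts alone do not show whether the gene was edited or the labels were exchanged. Group names below are therefore labels only, and every direction follows them.

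PRDM proteins combine a PR domain, a relative of the SET domain of histone methyltransferases, with zinc fingers that bind DNA. Many of them repress transcription by recruiting corepressors such as the CtBP proteins, histone deacetylases and the methyltransferase G9a. MECOM, also called EVI1 or PRDM3, is needed for the self-renewal of blood stem cells and is activated by rearrangements in acute myeloid leukaemia. Its upstream start gives a long form with the PR domain (MDS1-EVI1), and its downstream starts give a short form without it (EVI1). PRDM16 is its closest relative and directs the formation of brown fat.

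The RefSeq table for GRCh38.p14 lists 3 promoters of MECOM, all on the minus strand of chromosome 3, and their sequences are shown because the count of this gene pools RNA from all of them. Each window runs from 250 bases before to 50 bases after a start. Capitals mark matches on either strand to 4 motifs. They are the GC box with the letters GGGCGG, the CAAT box with the letters CCAAT, the TATA box with the letters TATAAA, and the letters AGATAA from the site bound by the first zinc finger cluster of EVI1.
MECOM start 1, chr3:169663663-169663962, minus strand: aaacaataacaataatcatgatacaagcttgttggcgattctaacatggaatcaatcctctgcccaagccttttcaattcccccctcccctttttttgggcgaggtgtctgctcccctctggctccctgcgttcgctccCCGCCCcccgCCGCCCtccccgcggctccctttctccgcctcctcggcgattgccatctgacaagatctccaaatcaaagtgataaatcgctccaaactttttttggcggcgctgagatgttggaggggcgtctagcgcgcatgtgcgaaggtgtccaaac
MECOM start 2, chr3:169147422-169147721, minus strand: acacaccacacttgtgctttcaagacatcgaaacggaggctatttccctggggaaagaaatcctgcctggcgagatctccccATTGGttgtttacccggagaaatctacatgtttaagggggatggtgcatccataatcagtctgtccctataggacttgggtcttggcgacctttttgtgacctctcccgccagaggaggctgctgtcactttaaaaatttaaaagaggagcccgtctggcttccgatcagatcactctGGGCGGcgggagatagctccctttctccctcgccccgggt
MECOM start 3, chr3:169146490-169146789, minus strand: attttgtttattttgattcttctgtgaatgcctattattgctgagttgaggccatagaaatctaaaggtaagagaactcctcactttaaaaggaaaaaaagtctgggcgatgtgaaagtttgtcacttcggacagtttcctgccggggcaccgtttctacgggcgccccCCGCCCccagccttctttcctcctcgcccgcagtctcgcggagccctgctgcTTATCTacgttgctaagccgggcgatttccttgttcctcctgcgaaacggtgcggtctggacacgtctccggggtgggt

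Start 1 lies 516.2 kb upstream of start 2, and starts 2 and 3 are 0.932 kb apart. The window of start 1 held 2 matches to the GC box, and those of starts 2 and 3 held 1 each. Start 2 had 1 match to the CAAT box and start 3 had 1 to the EVI1 letters, while the TATA box was in none of the 3 windows. Of 35116 promoter windows of the same length, 45% held the GC box, 34.6% the CAAT box, 11.5% the TATA box and 10.3% the EVI1 letters. The windows of starts 1 and 3 held 19 CpG dinucleotides each and that of start 2 held 12, against a median of 14 over all windows. Entries were found for 7 of the 8 genes, all but PRDM16. A match describes letters and does not show binding, and gene counts cannot say which start was used.

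MECOM (ENSG00000085276) had 870 and 971 counts under the sgControl label and 6074 and 5639 under the sg53BP1 label. The count pools 19 transcripts with 14 starts in GENCODE release 29. Both libraries labelled sg53BP1 lay far above both libraries labelled sgControl. In CPM (counts scaled to library size with TMM factors), its level was 55.1 ± 3.80 against 324.6 ± 16 (SD, n = 2 each). The ratio of the group means was 5.89, and the log2 fold change was 2.56 ± 0.13 (standard error). This difference is given without a test, since the gene was chosen for it. By log2 fold change MECOM ranked 112th from the top of 13140 tested genes, of which 150 (1.14%) reached a log2 fold change of 2. Leaving out each library in turn gave log2 fold changes between 2.51 and 2.64. In bulk RNA, a change in the share of cells that use a gene and a change in RNA per cell cannot be told apart.

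The libraries of each group lay close together for MECOM, 52.4 and 57.8 CPM in sgControl and 336 and 313 CPM in sg53BP1. These gaps were 1.10-fold and 1.07-fold, far below the distance between the groups. MECOM-AS1, the antisense gene that overlaps MECOM in GENCODE release 29, had a single count, in sg53BP1 replicate 2. The authors' deposited table gives MECOM a log2 value of −2.58 ± 0.15 (standard error). The authors' deposited table gives TP53BP1 −1.58 ± 0.20 (standard error), also negative. Both genes have the higher counts in the columns labelled as knockout, and the table's header does not say which group was divided by which. Whether the sign is that of control over knockout or the columns are exchanged cannot be told apart here.

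**Figure D1:**
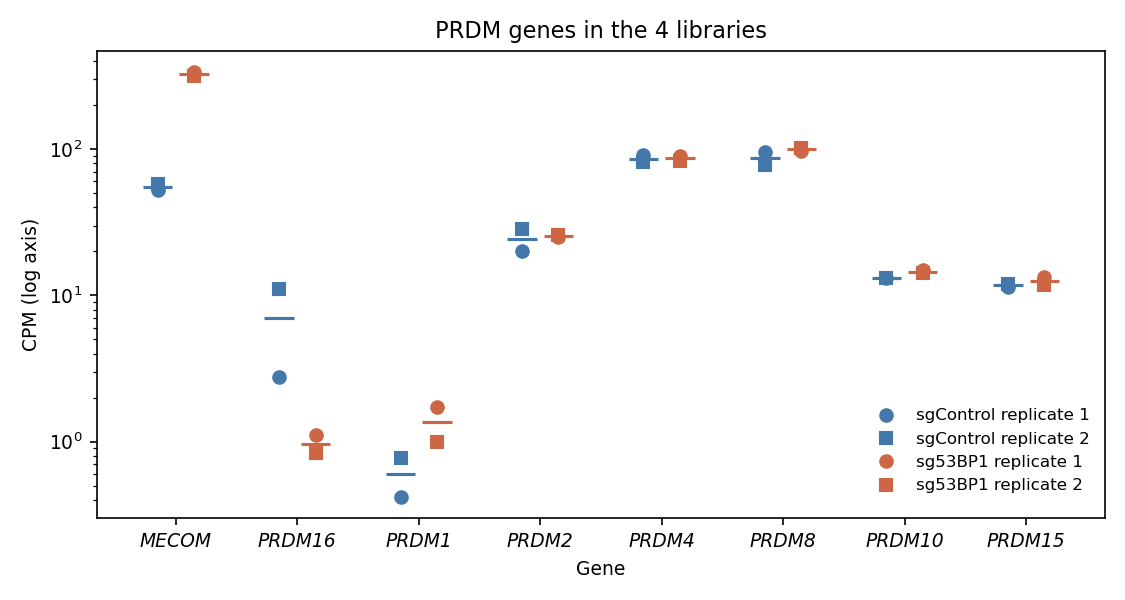
Level of each PRDM gene in the 4 libraries, in CPM on a log axis, with circles for replicate 1, squares for replicate 2 and horizontal lines for group means. MECOM stood at 52.4 and 57.8 CPM in sgControl and at 336 and 313 CPM in sg53BP1, while PRDM16 lay at 2.77 and 11.1 CPM against 1.11 and 0.833 CPM.

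Of the 8 genes, MECOM alone passed the threshold of 0.05 on p-values adjusted by Benjamini-Hochberg over all 13140 tested genes (quasi-likelihood test of edgeR). Among all tested genes 5.08% passed, 2.07% as higher and 3.01% as lower in the libraries labelled sg53BP1, and nothing is read from the count of members because the choice of MECOM used this contrast. The median log2 fold change of the 8 genes was 0.13, beside −0.02 for all tested genes. The count stayed at 1 with DESeq2 size factors (5.00% of all tested genes called), library totals (4.98%), limma-voom (5.05%) and the replicate block (2.26%). It was also 1 at a mean of at least 5 CPM (5.26%), where PRDM16 and PRDM1 were not among the 6 genes tested. It was 2 without the low-count filter (7.88%) and with the DESeq2 Wald test (7.54%), where PRDM16 was added. Values of the 2 groups did not overlap for 5 of the 8 genes, which was also so for 50.7% of all tested genes.

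PRDM16 (ENSG00000142611), the brown fat factor, had 46 and 187 counts in the sgControl-labelled libraries and 20 and 15 in the libraries labelled sg53BP1. Both libraries labelled sg53BP1 were below both libraries labelled sgControl, but sgControl replicate 2 alone held most of the counts. The level was 6.95 ± 5.91 CPM in sgControl and 0.970 ± 0.193 CPM in sg53BP1 (SD, n = 2 each). Its log2 fold change was −2.83 ± 0.76 (standard error). It did not pass the test (edgeR adjusted p = 0.133). The libraries labelled sgControl differed 4.02-fold from each other, and a finite gap of that size or more was found in 2.32% of the tested genes. Tested genes with no counts in an sgControl library have no finite gap and were not counted as having one.

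The call for PRDM16 changed with the method and with the libraries used, and its log2 fold change also moved with the libraries. It passed when no genes were filtered (edgeR adjusted p = 8.02e-10), and the Wald test of DESeq2 also called it (adjusted p = 0.00154). In the authors' deposited table its adjusted p was 5.18e-04. Without sgControl replicate 1 the log2 fold change was −3.48 and without sgControl replicate 2 it was −1.5. It was −3.045 without sg53BP1 replicate 1 and −2.639 without sg53BP1 replicate 2. Only log2 fold changes are given for these fits, as 1 library was left in a group. With limma-voom PRDM16 did not pass (adjusted p = 0.350). The divergent transcript PRDM16-DT, named after its values were seen, had 12 and 25 counts in sgControl against 7 and 3 in sg53BP1. It too was highest in sgControl replicate 2, with a log2 fold change of −1.97 ± 0.69 (standard error) that did not pass (edgeR adjusted p = 0.163).

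PRDM1 (ENSG00000057657), known as BLIMP-1, is the repressor that drives the formation of plasma cells. It had 7 and 13 counts in the sgControl-labelled libraries and 31 and 18 in the libraries labelled sg53BP1. The groups did not overlap, but every library held few counts, where counting error is large. Its log2 fold change was 1.17 ± 0.57 (standard error; edgeR adjusted p = 0.307). PRDM1 overlaps ATG5 on the other strand, which had 783 to 950 counts in every library. The overlap is that of whole gene spans, and no strand setting is stated. Whether any reads of ATG5 entered the count of PRDM1 was not tested.

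PRDM8 (ENSG00000152784), a neural repressor in mice, had 1584 and 1311 counts in the sgControl-labelled libraries and 1764 and 1824 in the libraries labelled sg53BP1. The libraries labelled sg53BP1 were the higher by a small margin, 99.5 ± 2.67 CPM against 86.7 ± 12.3 CPM (SD, n = 2 each). The log2 fold change was 0.20 ± 0.14 (standard error; edgeR adjusted p = 0.496). Without sgControl replicate 1 it was 0.38, and without sgControl replicate 2 it was 0.07.

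PRDM4 (ENSG00000110851), which recruits the arginine methyltransferase PRMT5, had 1499 and 1373 counts in sgControl and 1613 and 1501 in sg53BP1. Its groups overlapped, at 86.0 ± 6.08 and 86.3 ± 4.12 CPM (SD, n = 2 each), and the log2 fold change was 0.00 ± 0.13 (standard error). PRDM2 (ENSG00000116731), a retinoblastoma-binding methyltransferase also called RIZ, had 332 and 475 counts against 452 and 467. Its sg53BP1 values lay between those of the sgControl pair, with a log2 fold change of 0.08 ± 0.19 (standard error). The sign of PRDM2 turned without sgControl replicate 1, and that of PRDM4 turned under 3 of the alternatives tried.

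PRDM10 (ENSG00000170325), an activator of the folliculin gene FLCN, had 217 and 222 counts in sgControl and 269 and 256 in sg53BP1. The groups did not overlap, yet the log2 fold change of 0.15 was within its standard error of 0.18. PRDM15 (ENSG00000141956), which acts in pluripotent cells of the mouse embryo, had 190 and 200 counts against 242 and 211. Its groups overlapped in CPM, with a log2 fold change of 0.10 ± 0.19 (standard error). Adjusted p-values of PRDM2, PRDM4, PRDM10 and PRDM15 lay between 0.726 and 0.990 (edgeR), which does not show that their levels were equal.

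**Figure D2:**
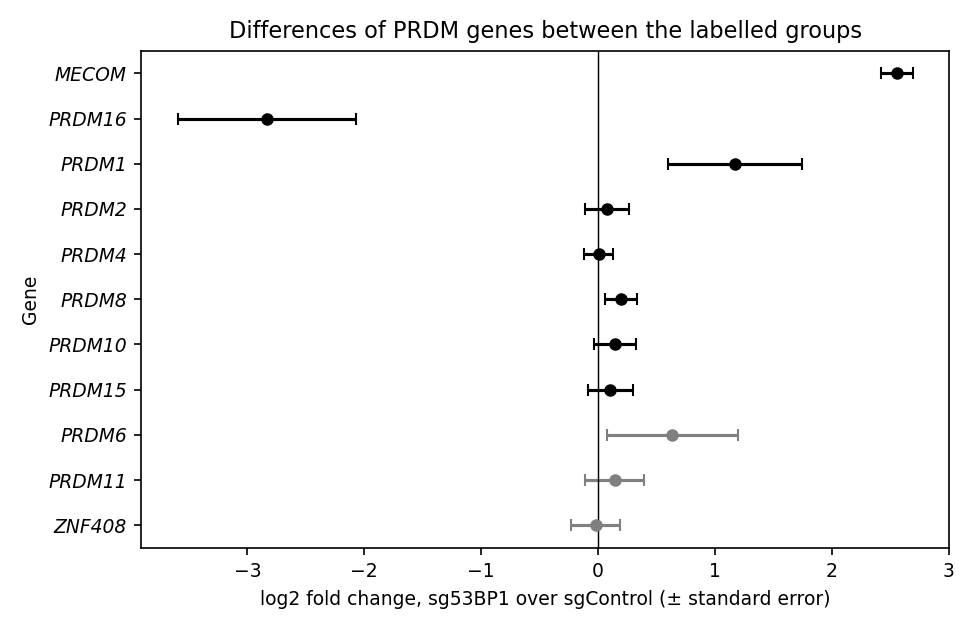
Log2 fold change of PRDM genes, sg53BP1 over sgControl, with bars for the standard error; black points are the 8 genes described and grey points are PRDM6, PRDM11 and ZNF408. MECOM lies at 2.56, PRDM16 at −2.83 with a standard error of 0.76, and PRDM2, PRDM4, PRDM8, PRDM10 and PRDM15 lie between 0.00 and 0.20.

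Levels of different genes were compared per length, as CPM per kilobase of exon, with exon lengths from GENCODE release 29. In sgControl, PRDM8 at 18.9 ± 2.68 and PRDM4 at 18.0 ± 1.27 CPM per kilobase led, and their ranges overlapped (SD, n = 2 each). MECOM came next at 6.05 ± 0.417, near the median of 5.48 over all tested genes. PRDM2 (2.21 ± 0.535) and PRDM10 (1.98 ± 0.0148) overlapped each other, as did PRDM15 (0.898 ± 0.0248) and PRDM16 (0.712 ± 0.605), and PRDM1 was lowest at 0.0935 ± 0.0389.

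In sg53BP1, MECOM stood first at 35.7 ± 1.76 CPM per kilobase, followed by PRDM8 at 21.7 ± 0.581 and PRDM4 at 18.1 ± 0.862 (SD, n = 2 each). Among all tested genes its rank by this level was 6199 in sgControl and 1195 in sg53BP1. PRDM2, PRDM10 and PRDM15 followed at 2.33 ± 0.0612, 2.2 ± 0.0700 and 0.965 ± 0.0904. PRDM1 (0.212 ± 0.0790) and PRDM16 (0.0993 ± 0.0198) had exchanged places at the low end. Neighbours in this order did not overlap between the 2 sg53BP1 libraries.

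Other members of the family were read from the same table. PRDM7, PRDM9, PRDM13 and PRDM14 had no row. PRDM12, a factor of pain-sensing neurons, had between 0 and 5 counts in a library and was not tested. PRDM6, PRDM11 and ZNF408 did not pass (edgeR adjusted p = 0.605, 0.823 and 0.978). PRDM6, a repressor in smooth muscle, had 11 and 11 counts in sgControl and 13 and 24 in sg53BP1, a log2 fold change of 0.63 ± 0.56 (standard error). PRDM11 (119 and 177 against 169 and 184 counts) and ZNF408, also called PRDM17 (183 and 246 against 231 and 226 counts), overlapped between groups.

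No difference like that of MECOM was measured in the 5 tested genes around it. Of the 20 nearest protein-coding and long non-coding genes in GENCODE release 29, 10 on each side, 7 had a row in the table and 5 were tested. None of the 5 passed (edgeR; 0 also with the DESeq2 Wald test and limma-voom, and 0 at an unadjusted p under 0.05), and their log2 fold changes lay between −0.41 and 0.12 with a median of −0.15. Over all tested genes the shares were 5.08%, 7.54%, 5.05% and 19.3% by these rules, so 0 of 5 is near the background. MYNN, a zinc finger gene 109.2 kb upstream of the first start, had 178 and 241 counts in sgControl and 272 and 219 in sg53BP1. ACTRT3, an actin-related gene 103.3 kb upstream, had 20 and 44 counts against 21 and 31.

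The neighbours beyond the 3 prime end lay further off. GOLIM4, a Golgi membrane protein gene at 987.5 kb, had 1289 and 1034 counts in sgControl and 1115 and 971 in sg53BP1. Its log2 fold change of −0.27 did not pass (edgeR adjusted p = 0.406), but it was −0.42 without sgControl replicate 2 (edgeR adjusted p = 0.0191). SERPINI1, which encodes neuroserpin, had a log2 fold change of −0.09 ± 0.25 and PDCD10, a gene of cerebral cavernous malformation, one of −0.15 ± 0.13 (standard errors). LRRC34 and WDR49 had at most 3 counts in a library. The telomerase RNA gene TERC, 100.9 kb upstream, had no row.

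**Figure D3:**
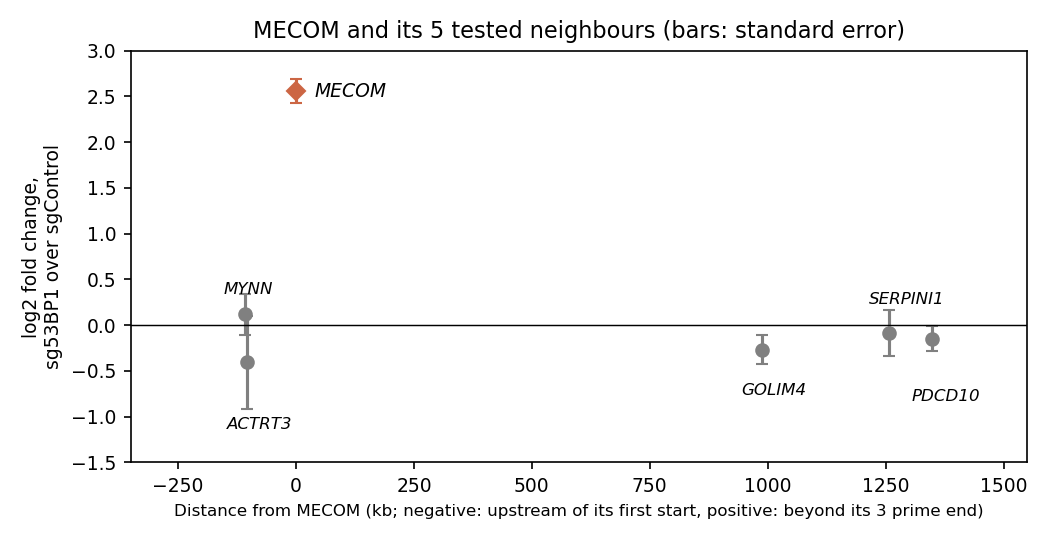
Log2 fold change, sg53BP1 over sgControl, of MECOM and its 5 tested neighbours against their distance from MECOM in kb, with bars for the standard error. MECOM lies at 2.56 and the 5 neighbours between −0.41 and 0.12.

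Genes known to work with PRDM factors were described from a list of 31, of which 28 had a row and 27 were tested. DNMT3B and PPARG rose and CEBPB fell, 2 higher and 1 lower, and 24 did not pass (edgeR; 5.08% of all tested genes passed). The median log2 fold change was 0.11, beside −0.02 for all tested genes. PPARG, the nuclear receptor of fat cell formation that PRDM16 binds in mice, had 524 and 620 counts in sgControl and 1187 and 1247 in sg53BP1. All sg53BP1 values exceeded all sgControl values, at 67.5 ± 2.57 against 34.2 ± 3.77 CPM (SD, n = 2 each; 1.97-fold; edgeR adjusted p = 0.00655).

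CEBPB, a partner of PRDM16 in the brown fat switch of mice, had 1077 and 1417 counts in sgControl and 698 and 799 in sg53BP1, and was 1.80-fold lower (edgeR adjusted p = 0.0229). DNMT3B, a DNA methyltransferase reported to bind EVI1, had 135 and 113 counts against 266 and 266 and was 1.99-fold higher (edgeR adjusted p = 0.0317). The replicate number as a block ended the call of DNMT3B (edgeR adjusted p = 0.0881). PPARGC1A, a coactivator of mitochondrial genes, had 136 and 293 counts against 98 and 69, a log2 fold change of −1.47 ± 0.40 (standard error; edgeR adjusted p = 0.106). The corepressors CTBP1 and CTBP2 had log2 fold changes of 0.05 and 0.12, and HDAC1, HDAC2 and HDAC3 had −0.24, 0.21 and −0.05, none of which passed.

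Counts of calls on this list moved with the libraries used. Without sgControl replicate 1 or 2 there were 8 and 6 calls (24.5% and 18.4% of all tested genes), and without sg53BP1 replicate 1 or 2 there were none (0.0366% of all tested genes in each case). The log2 fold changes of PPARG, CEBPB and DNMT3B kept their sign in each of these fits. GATA1, CEBPA and BHLHE22 had no row, and SPI1 had 3 counts, all in sgControl replicate 2.

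Of 25 genes reported as targets of MECOM, PRDM1 or PRDM16, mostly in blood, lymphoid or fat cells, 18 had a row and 16 were tested. DIO2 rose, and XBP1, ADGRG1 and CIITA were among those that fell, 1 higher and 4 lower, and 11 did not pass (edgeR; 5.08% of all tested genes passed). The median log2 fold change was −0.17, beside −0.02 for all tested genes. CEBPA, PPARGC1A, GATA2 and RUNX1 stand on this list and on that of partners.

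XBP1, the transcription factor of secretory cells downstream of PRDM1, had 1621 and 1470 counts in sgControl and 942 and 872 in sg53BP1. The groups did not overlap, and the gene was 1.84-fold lower (edgeR adjusted p = 0.00745). ADGRG1, an adhesion receptor activated by EVI1 in leukaemia cells, had 852 and 1061 counts against 612 and 630 and was 1.66-fold lower (edgeR adjusted p = 0.0273). CIITA, the transactivator of MHC class II genes that PRDM1 represses, had 175 and 361 counts against 62 and 89 and was 3.82-fold lower (edgeR adjusted p = 0.0469).

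DIO2, the deiodinase that activates thyroid hormone in brown fat, had 29 and 77 counts in sgControl and 317 and 303 in sg53BP1, 5.43-fold higher (edgeR adjusted p = 0.0361). The libraries labelled sgControl differed 2.62-fold from each other, less than the distance between groups. Its log2 fold change of 2.44 became 1.94 when sgControl replicate 1 was left out and 3.30 when replicate 2 was. For CIITA the log2 fold change of −1.93 was −2.33 and −1.32 in the same fits. The calls of DIO2 and ADGRG1 were lost with the replicate number as a block (edgeR adjusted p = 0.0525 and 0.0674). That of CIITA was lost with limma-voom (adjusted p = 0.113) and at a mean of at least 5 CPM (edgeR adjusted p = 0.0516). GATA2, which EVI1 activates in blood stem cells of mice, had 103 and 63 counts against 115 and 95, with overlapping groups.

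Without sgControl replicate 1 or 2, 11 and 10 of the reported targets passed, and without sg53BP1 replicate 1 or 2 none did. The shares of all tested genes called in these fits moved likewise, at 24.5% and 18.4% and at 0.0366% in each of the last pair. UCP1, CIDEA and ELOVL3, defining genes of brown fat, had no row, as had ADIPOQ, while COX7A1 had at most 5 counts in a library. Of this marker list of 7 genes, DIO2 and PPARG were tested and both rose (2.07% of all tested genes were higher). Both were already described above, DIO2 as a target and PPARG as a partner. The summed level of the list was 33.3 and 41.8 CPM in sgControl and 83.2 and 86.3 CPM in sg53BP1. Most of it was PPARG, at 31.57 and 36.9 CPM against 65.65 and 69.28 CPM.

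**Figure D4:**
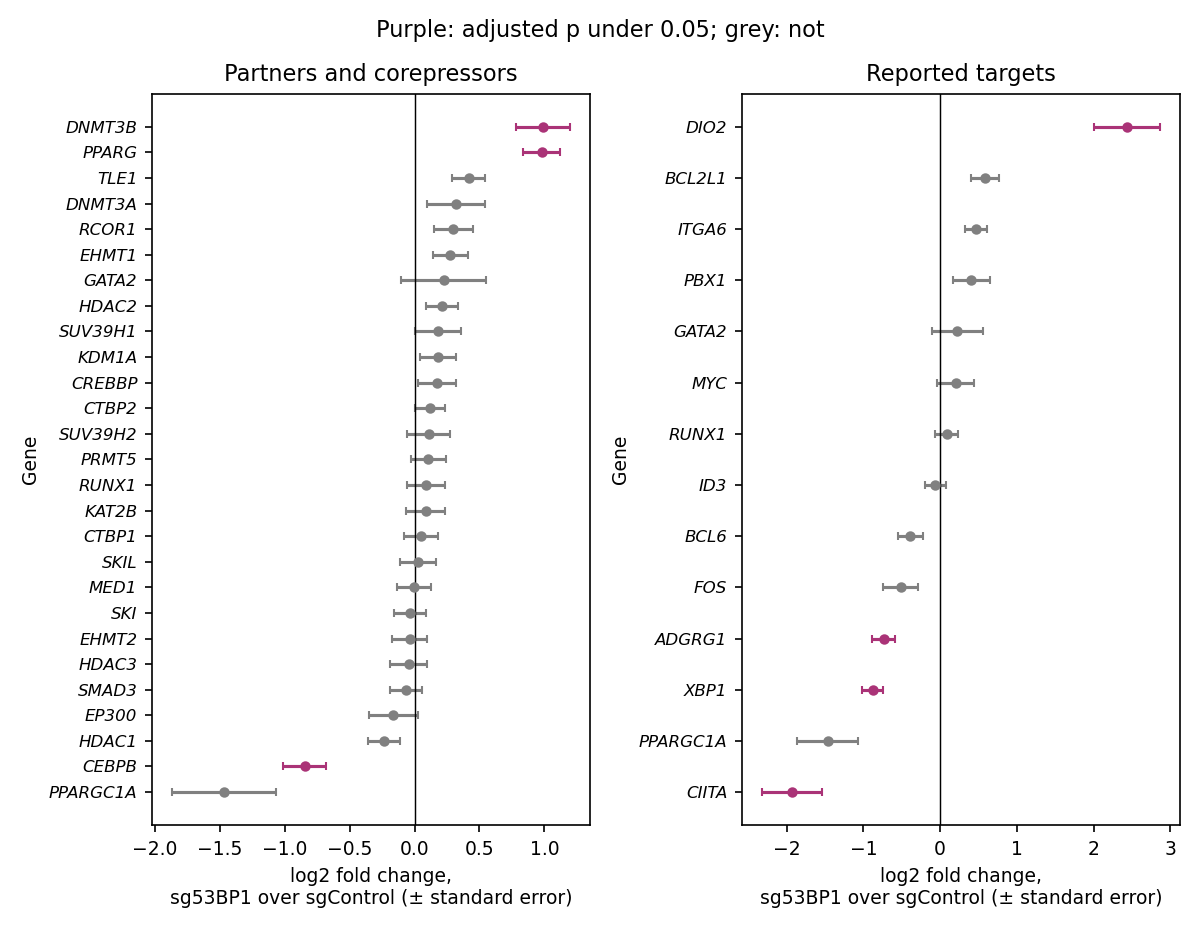
Log2 fold change, sg53BP1 over sgControl, of tested partners and corepressors (left) and reported targets (right) of PRDM factors, with bars for the standard error; purple points passed an adjusted p of 0.05. Not every tested gene is drawn; DNMT3B and PPARG (left) and DIO2 (right) lie above 0, and CEBPB (left) and ADGRG1, XBP1 and CIITA (right) lie below it.

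The genes most like MECOM were taken by the smallest root mean square difference of log2 CPM over the 4 libraries, each profile centred on its own mean, among 10366 genes. These 10 genes were chosen by the same contrast, so their differences are descriptions with no test. ANXA3, a calcium-dependent membrane-binding annexin, was closest, at 0.09 log2 units. It had 547 and 575 counts in sgControl and 3236 and 3148 in sg53BP1, 5.27-fold higher. SHISAL1, at 0.17 log2 units, had 48 and 56 counts against 265 and 280. TGFA, a ligand of the EGF receptor at 0.18 log2 units, had 78 and 123 counts against 692 and 638, 6.13-fold higher.

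The remaining genes of the 10 were, in this order, the long non-coding RNA LINC02009, LZTS1, MSLN (mesothelin), the glycosyltransferase gene B4GALNT4, the secretory pathway kinase FAM20C, the sulfotransferase SULT1C2 and the BMP signalling inhibitor SMAD6. Their distance from MECOM lay between 0.22 and 0.36 log2 units. In most of them the libraries labelled sgControl were less alike than those of MECOM, as in FAM20C with 447 and 848 counts and SULT1C2 with 52 and 31. The exception was B4GALNT4, whose pair differed 1.10-fold, as that of MECOM did. With only 4 libraries, any gene with a like difference between groups scores as similar.

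**Figure D5:**
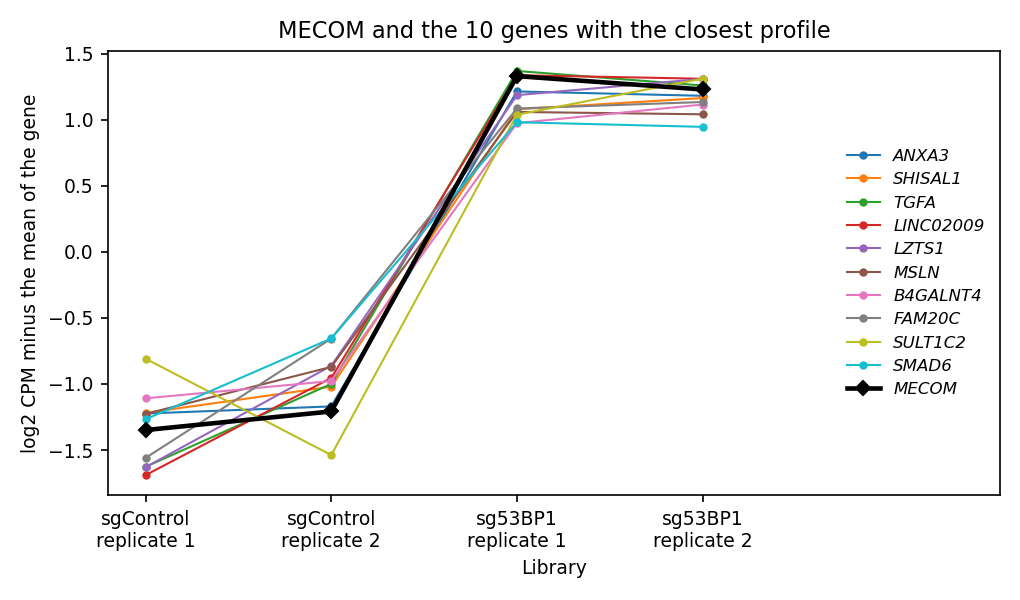
Log2 CPM minus the mean of the gene in each library for MECOM (black) and the 10 genes with the closest profile; lines join the values of a gene. Over the 4 libraries MECOM runs from −1.35 and −1.21 in sgControl to 1.33 and 1.23 in sg53BP1, and ANXA3 from −1.22 and −1.17 to 1.21 and 1.18.

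Some facts of the libraries bear on these values. Of 13 pigment epithelium markers, 6 were tested and none passed, and RPE65 and TTR had no row. Their summed level was 698 and 1066 CPM in sgControl and 681 and 721 CPM in sg53BP1, mostly KRT8. Of 9 blood markers none reached 1 CPM in every library, with sums of 1.51 to 3.87 CPM, and CD3E had no row. Of 6 fibroblast markers 5 were tested, none rose, and THY1 and PDGFRA fell (3.01% of all tested genes were lower and 5.08% passed in either direction), with sums of 378 and 336 CPM in sgControl and 203 and 213 CPM in sg53BP1. The part of that difference in the results above was not tested.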

How the data were processed

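Total RNA of 2 libraries labelled sgControl and 2 labelled sg53BP1 was sequenced as paired-end reads. Per the submitters' processing notes, the tools included Bowtie2 2.2.3, HISAT2 2.1.0 and HTSeq 0.6.0, and the build was hg19. Not given in the sources used here are each tool's role, the annotation and strandedness. The authors deposited raw read counts per gene and their own comparison: p-values (raw and adjusted), log2 fold changes with errors, a score (their test statistic) and a signal (the mean normalised level). Columns were matched to samples by the labels.

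The 20050 rows gave 19653 Ensembl identifiers once 397 repeats with identical counts were removed. Floors of 3 counts lay between 0.166 and 0.181 CPM and cover counting error only. Groups were compared with edgeR 4.0.16 in R 4.3.3 (quasi-likelihood test, filterByExpr, TMM factors of 0.9961 to 1.007, robust, group as the only term), with Benjamini-Hochberg adjustment over 13140 genes and a threshold of 0.05. Standard errors came from the F statistic. Log2 CPM used a prior count of 2. The steps were tested on simulated data.

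Alternatives were DESeq2 size factors, library totals, the DESeq2 1.42.0 Wald test, limma-voom (limma 3.58.1), testing every row or those averaging 5 CPM, a replicate block and each library left out. Named were the 8 genes, other family members and neighbours with a row, up to 8 called partners and 8 called targets, and the 10 genes most like MECOM; others were chosen after their values were seen. Some genes on these lists are not reported here, though the counts include them. The members and lists were chosen with earlier results of these data known. Exon lengths, overlaps and neighbours came from GENCODE release 29, on another build than the counts, and promoters from RefSeq (GRCh38.p14).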

Additional observations from a re-analysis of the deposited data

How the results depend on the processing

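The log2 fold change of MECOM kept its size under all 11 alternatives, within the spread between replicates. The number of the 8 PRDM genes called was 2 with the DESeq2 Wald test (7.54% of all tested genes called) and 2 without the low-count filter (7.88%), with PRDM16 as the addition in both. Partners called numbered 5 with the DESeq2 Wald test and 5 without the filter, and reported targets 8 and 9. Over all genes 1548 were called without the filter. The replicate number as a block left 3 reported targets and 297 genes in all (2.26% of all tested genes). Same-numbered libraries did not deviate together (r = 0.03 across genes, which are not independent replicates). This value cannot show whether libraries of the same number were prepared together, which the labels do not state.

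With each library left out in turn, calls ranged from 1 to 3 for the PRDM genes described, 0 to 1 for other family members, 0 to 8 for partners, 0 to 11 for reported targets, 0 to 1 for neighbours and 5 to 3358 over all genes. The highest counts came without an sgControl library and the lowest without an sg53BP1 library; the cause was not tested. In those fits the group with 1 remaining library takes its spread from the pair. Of the genes named by the rule other than MECOM, 34 tested ones gave 318 values that stayed on their side of the threshold, 14 that newly passed and 37 that no longer did. Depth limits PRDM1, PRDM6 and PRDM12 most, with at most 31 counts in a library.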
